A study of Homo sapiens with 24 samples.

Results

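The comparison set the transcriptional response of 1 breast cancer cell line, HCC38, to combined EZH2 and AKT inhibition against the response of another, HCC1937. For each gene the log2 difference was the change in HCC38 (EZH2i+AKTi minus DMSO) less the change in HCC1937 (EZH2i+AKTi minus DMSO). A positive difference means that the gene rose more, or fell less, in HCC38. All 19231 of 58735 entries in the count tables that passed a low-count filter were members. The 4 groups were HCC38 cells given 5 uM tazemetostat, an inhibitor of the methyltransferase EZH2, together with 5 uM of the AKT kinase inhibitor ipatasertib, HCC38 cells given DMSO, HCC1937 cells given the same pair of inhibitors at the same doses, and HCC1937 cells given DMSO. Each group held 3 libraries, A, B and C, so 12 of the 24 libraries of the study entered the comparison. The rest came from a further line, HCC1395, given DMSO, either inhibitor alone or both inhibitors, at the same doses. How long HCC38 and HCC1937 were treated is unclear, because the timeline in the labels concerns a different line and assay. Neither inhibitor was given alone to HCC38 or HCC1937.

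EZH2 is the catalytic subunit of Polycomb repressive complex 2 (PRC2), which methylates histone H3 at lysine 27 and keeps developmental genes silent. AKT kinases relay signals of growth factor receptors and PI3K. They hold FOXO transcription factors out of the nucleus and promote glycolysis, protein synthesis and entry into the cell cycle. When AKT is blocked, FOXO factors and feedback loops raise receptor and PI3K pathway genes.

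Library totals ran from 33806811 to 41816594 counts in HCC38 and from 35506411 to 47370609 in HCC1937. The first principal component held 81.6% of the variance and parted the lines, and the second held 9.18% and parted EZH2i+AKTi from DMSO. Mitochondrially encoded genes took 4.76, 5.19 and 7.77% of counts in HCC38 under EZH2i+AKTi, against 5.82, 5.08 and 5.78% under DMSO, and 7.09, 6.72 and 8.54% in HCC1937 under EZH2i+AKTi, against 4.81, 6.37 and 6.13% under DMSO. Replicate C of EZH2i+AKTi in HCC38 thus stood above its fellow replicates, and it also lay apart on the third component (3.39% of the variance). Levels are in CPM, the count of a gene scaled to a common library size. Both lines expressed the epithelial markers EPCAM (517 CPM in HCC38 and 342 CPM in HCC1937, means under DMSO) and CDH1 (246 and 706 CPM in HCC38 and HCC1937). Single markers differed under DMSO: KRT19, a keratin of simple and luminal epithelium, averaged 1175 CPM in HCC38 and 53.5 CPM in HCC1937, VIM, the mesenchymal filament vimentin, 970.5 CPM in HCC38 and 60.4 CPM in HCC1937, and ESR1, the estrogen receptor, 2.05 CPM in HCC38 and 21.1 CPM in HCC1937. KRT19 does not stand for the luminal list, of which 4 of 24 tested markers were higher and 19 lower in HCC38 under DMSO (median log2 difference of levels -1.11). The summed level of 9 endothelial markers was 0.993 to 1.34 CPM in HCC38 under EZH2i+AKTi and 0.768 to 0.852 CPM in HCC38 under DMSO. In HCC1937 it was 78.7 to 80.8 CPM under EZH2i+AKTi and 42.7 to 46.7 CPM under DMSO, with CDH5 and PECAM1 as the top genes. Its part in the results was not tested.

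The lines shared much of the response and differed in the size or direction of much of it. The difference passed the threshold (Benjamini-Hochberg adjusted p under 0.05, edgeR's quasi-likelihood test) for 5534 genes, 28.8% of those tested: 3051 (15.9%) were higher and 2483 (12.9%) lower in HCC38 relative to HCC1937. At 2-fold or more there were 759 higher (3.95%) and 960 lower (4.99%). In HCC38 alone 6788 genes were called (35.3%), of which 3826 rose (19.9%) and 2962 fell (15.4%). In HCC1937 alone 9405 were called (48.9%), of which 5013 rose (26.1%) and 4392 fell (22.8%). Counts of rises, falls and differences in the gene lists below are to be read against these shares of all genes. Changes of at least 2-fold numbered 1419 rises (7.38%) and 206 falls (1.07%) in HCC38, against 2217 rises (11.5%) and 563 falls (2.93%) in HCC1937. The lines themselves differed at 14271 genes (74.2%): under DMSO 7077 (36.8%) were higher and 7194 (37.4%) lower in HCC38 than in HCC1937. In bulk samples, fewer cells of a type and less RNA per cell cannot be told apart, and nothing says that replicates were separate cultures, so p-values reflect variation among these libraries that may be only technical.

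Most called differences came from a change that was called in only 1 of the lines. Among the 3051 higher differences, 1406 genes (7.31%) fell in HCC1937 with no call in HCC38, 677 (3.52%) rose in HCC38 with no call in HCC1937, and 357 rose in HCC38 and fell in HCC1937 (1.86% of all genes). A further 289 (1.5%) fell in both and 246 (1.28%) rose in both, and 76 were called in neither line. Among the 2483 lower differences, 1189 genes (6.18%) rose in HCC1937 with no call in HCC38, 486 (2.53%) fell in HCC38 with no call in HCC1937, and 211 fell in HCC38 and rose in HCC1937 (1.1%). The other lower differences were 445 genes (2.31%) that rose in both, 43 that fell in both and 109 called in neither. For comparison, 2098 genes rose in both lines (10.9%) and 1508 fell in both (7.84%), whatever their difference. Without replicate A of EZH2i+AKTi in HCC38, 596 genes rose in HCC38 and fell in HCC1937 and 416 did the reverse. Without replicate C of EZH2i+AKTi in HCC1937, 136 genes fell in HCC38 and rose in HCC1937.

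**Figure D1:**
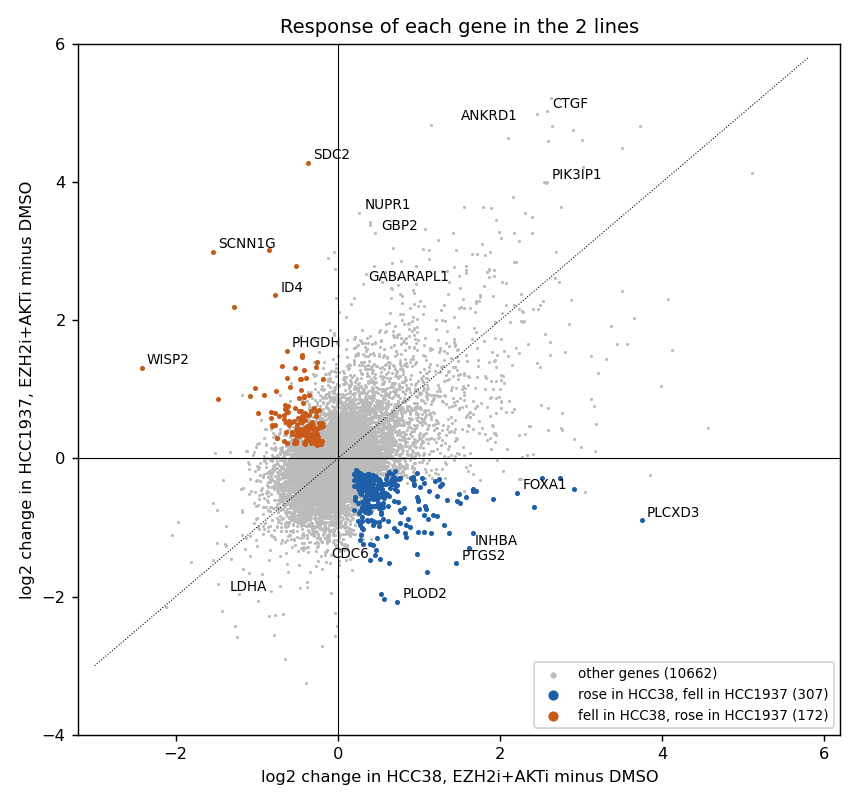
Log2 change of each protein-coding gene with at least 2 CPM in both lines (x axis, EZH2i+AKTi minus DMSO in HCC38; y axis, the same in HCC1937). Blue marks 307 genes that rose in HCC38 and fell in HCC1937, orange 172 that fell in HCC38 and rose in HCC1937, grey the others, and the dotted line equal change. The coloured genes fill the lower right and upper left quadrants.

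Genes active in both lines were compared next. Of 11141 protein-coding genes that averaged 2 CPM or more in some group of each line, 4294 (38.5%) had a called difference, 2636 higher and 1658 lower. Their log2 changes had an SD of 0.525 in HCC38 and 0.631 in HCC1937, and the correlation between the changes in the 2 lines was r = 0.513, a value across genes that share libraries and are not independent replicates. The ratio of HCC38 to HCC1937 levels varied across these genes with an SD of 1.07 on the log2 scale under EZH2i+AKTi and 1.11 under DMSO (pseudocount 0.5 CPM).

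The targets of the 2 drugs gave the first difference. EZH2 was at 42.6, 46.8 and 52.8 CPM in HCC38 under EZH2i+AKTi, against 47.6, 48.7 and 48.7 CPM in HCC38 under DMSO. In HCC1937, EZH2 was at 56.8, 52.97 and 50.4 CPM under EZH2i+AKTi, against 89.3, 95.95 and 102 CPM under DMSO. The groups overlapped in HCC38 and were well apart in HCC1937, where EZH2 fell (-0.84 ± 0.086 SE on the log2 scale, here and below, adjusted p = 7.59e-07); the change in HCC38 was -0.028 ± 0.086 (adjusted p = 0.836), and the difference was 0.81 ± 0.12 (adjusted p = 1.33e-04). SUZ12, the PRC2 scaffold subunit, was at 95.6, 106 and 130.3 CPM in HCC38 under EZH2i+AKTi, against 117, 99 and 112 CPM in HCC38 under DMSO. In HCC1937, SUZ12 was at 81.5, 76.1 and 74.6 CPM under EZH2i+AKTi, against 123, 133 and 133 CPM under DMSO. It too was lower under treatment in HCC1937 (-0.74 ± 0.10, adjusted p = 1.61e-05) and overlapped between groups in HCC38 (0.012 ± 0.10, adjusted p = 0.947), with a difference of 0.76 ± 0.14 (adjusted p = 0.00101). EED, the subunit that binds methylated lysine 27, differed by 0.39 ± 0.11 (adjusted p = 0.0165), and MTF2, an accessory subunit that recruits the complex to DNA, by 0.47 ± 0.13 (adjusted p = 0.0115). EZH1, the paralog of EZH2, rose in both lines (0.62 ± 0.11 in HCC38 and 0.94 ± 0.10 in HCC1937), and its difference of -0.32 ± 0.15 missed the threshold (adjusted p = 0.124). Of 15 tested genes of a list that holds PRC2 subunits and partners and the demethylase genes KDM6A and KDM6B, which oppose the complex, 6 were called higher, KDM6A among them, and 0 lower in the difference (median log2 difference 0.25, against -0.015 over all genes).

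AKT1, an AKT isoform, averaged 132 CPM in HCC38 under EZH2i+AKTi and 141 CPM in HCC38 under DMSO, and 94.99 CPM in HCC1937 under EZH2i+AKTi and 117 CPM in HCC1937 under DMSO. The differences of AKT1 and AKT2 were 0.20 ± 0.12 (adjusted p = 0.218) and -0.25 ± 0.19 (adjusted p = 0.358). Without replicate C of EZH2i+AKTi in HCC38 the AKT1 difference was called (adjusted p = 0.0296), and without replicate A that of AKT2 was (0.016).

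PHLPP2, a phosphatase that removes an activating phosphate of AKT, was at 42.99, 44.9 and 53.9 CPM in HCC38 under EZH2i+AKTi, against 48.1, 42.7 and 48.2 CPM in HCC38 under DMSO. In HCC1937, PHLPP2 was at 11.2, 12.2 and 11.4 CPM under EZH2i+AKTi, against 22.97, 25.8 and 26.4 CPM under DMSO. Its treated and DMSO libraries overlapped in HCC38, and it fell in HCC1937 (-1.11 ± 0.10; difference 1.14 ± 0.14, adjusted p = 1.82e-05). INPP4B, a phosphatase of PI3K lipids, rose in HCC38 (1.06 ± 0.11) with a difference of 0.81 ± 0.14 (adjusted p = 6.18e-04). PIK3R1, which encodes a regulatory subunit of PI3K, had a difference of 0.16 ± 0.18 (adjusted p = 0.531). Across 23 tested members of the pathway, 8 differences were called higher and 4 lower (52.2% called, against 28.8% of all genes). The members had 5 rises and 4 falls in HCC38, against 19.9% and 15.4% of all genes. In HCC1937 they had 6 rises and 10 falls, against 26.1% and 22.8% of all genes. The rises in both lines and the falls in HCC38 were near the shares of all genes. Without replicate A of EZH2i+AKTi in HCC38 the rises there numbered 8.

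FOXO targets and PI3K feedback genes mostly rose in both lines, with a larger median rise in HCC1937. Of 38 tested genes 25 rose and 1 fell in HCC38, and 29 rose and 4 fell in HCC1937. The difference was called lower for 17 and higher for 7 (63.2% called, against 28.8% of all genes). The median change was 0.43 in HCC38 and 0.93 in HCC1937, against 0.015 and 0.043 over all genes in HCC38 and HCC1937. Taken gene by gene, the median difference was smaller, -0.18, against -0.015 over all genes. The count of falls in HCC1937 was 2 without DMSO replicate A or C, or without EZH2i+AKTi replicate B or C.

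PIK3IP1, an inhibitor of PI3K, was at 5.64, 4.89 and 3.41 CPM in HCC38 under EZH2i+AKTi, against 0.696, 0.793 and 0.864 CPM in HCC38 under DMSO. In HCC1937, PIK3IP1 was at 53.5, 63.2 and 66.1 CPM under EZH2i+AKTi, against 3.94, 4.05 and 3.53 CPM under DMSO. Every treated library lay above every DMSO library of its line, and every treated HCC1937 library lay above every treated HCC38 library. The log2 rises were 2.57 ± 0.20 in HCC38 and 3.99 ± 0.15 in HCC1937 (difference -1.42 ± 0.27, adjusted p = 9.86e-04). GABARAPL1, an ATG8 protein of autophagosomes, was at 47.2, 45.04 and 35.7 CPM in HCC38 under EZH2i+AKTi, against 33.9, 35.6 and 33.99 CPM in HCC38 under DMSO. In HCC1937, GABARAPL1 was at 204, 233 and 236 CPM under EZH2i+AKTi, against 41.7, 39.4 and 36.2 CPM under DMSO. In HCC38 only a small margin parted the groups, and in HCC1937 the gap was wide (difference -2.21 ± 0.14, adjusted p = 2.58e-08). IGF1R, the receptor of insulin-like growth factor, was at 90.2, 92.4 and 94.9 CPM in HCC38 under EZH2i+AKTi, against 60.2, 54.7 and 58.9 CPM in HCC38 under DMSO. In HCC1937, IGF1R was at 90.3, 86.8 and 84.5 CPM under EZH2i+AKTi, against 23.5, 23.4 and 25.6 CPM under DMSO. Its treated levels overlapped between the lines, while every DMSO library of HCC1937 was below those of HCC38 (difference -1.17 ± 0.10, adjusted p = 5.93e-07).

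CITED2, a transcriptional coregulator, reached 186, 167 and 169.9 CPM in HCC38 under EZH2i+AKTi, against 132, 123 and 125 CPM in HCC38 under DMSO, and 164, 159.8 and 163 CPM in HCC1937 under EZH2i+AKTi, against 52.8, 49.4 and 50.1 CPM in HCC1937 under DMSO. As with IGF1R, the treated levels of the lines were close and the DMSO levels were not (difference -1.21 ± 0.10, adjusted p = 2.43e-07). FBXO32, a ubiquitin ligase induced by FOXO in wasting muscle, had a difference of -1.01 ± 0.094 (adjusted p = 1.35e-06), IRS2, the adaptor of insulin receptors, -1.22 ± 0.12 (adjusted p = 3.41e-06), and TXNIP, an arrestin that limits glucose uptake, -0.93 ± 0.11 (adjusted p = 1.44e-05). The lower differences of these genes did not extend to FOXO1 itself, a factor that AKT phosphorylates. FOXO1 was at 3.52, 4.5 and 5.94 CPM in HCC38 under EZH2i+AKTi, against 1.19, 1.19 and 1.497 CPM in HCC38 under DMSO. In HCC1937, FOXO1 was at 18.2, 16.3 and 14.5 CPM under EZH2i+AKTi, against 13.03, 14.9 and 13 CPM under DMSO. It rose in HCC38 and overlapped between groups in HCC1937 (difference 1.58 ± 0.24, adjusted p = 1.71e-04). INSR, the insulin receptor gene, named after its values were seen, rose in both lines and by more in HCC38 (difference 0.95 ± 0.12, adjusted p = 3.56e-05). FOXO3 had a difference of 0.33 ± 0.13 (adjusted p = 0.06504), called without replicate A of EZH2i+AKTi in HCC38 (0.0272).

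**Figure D2:**
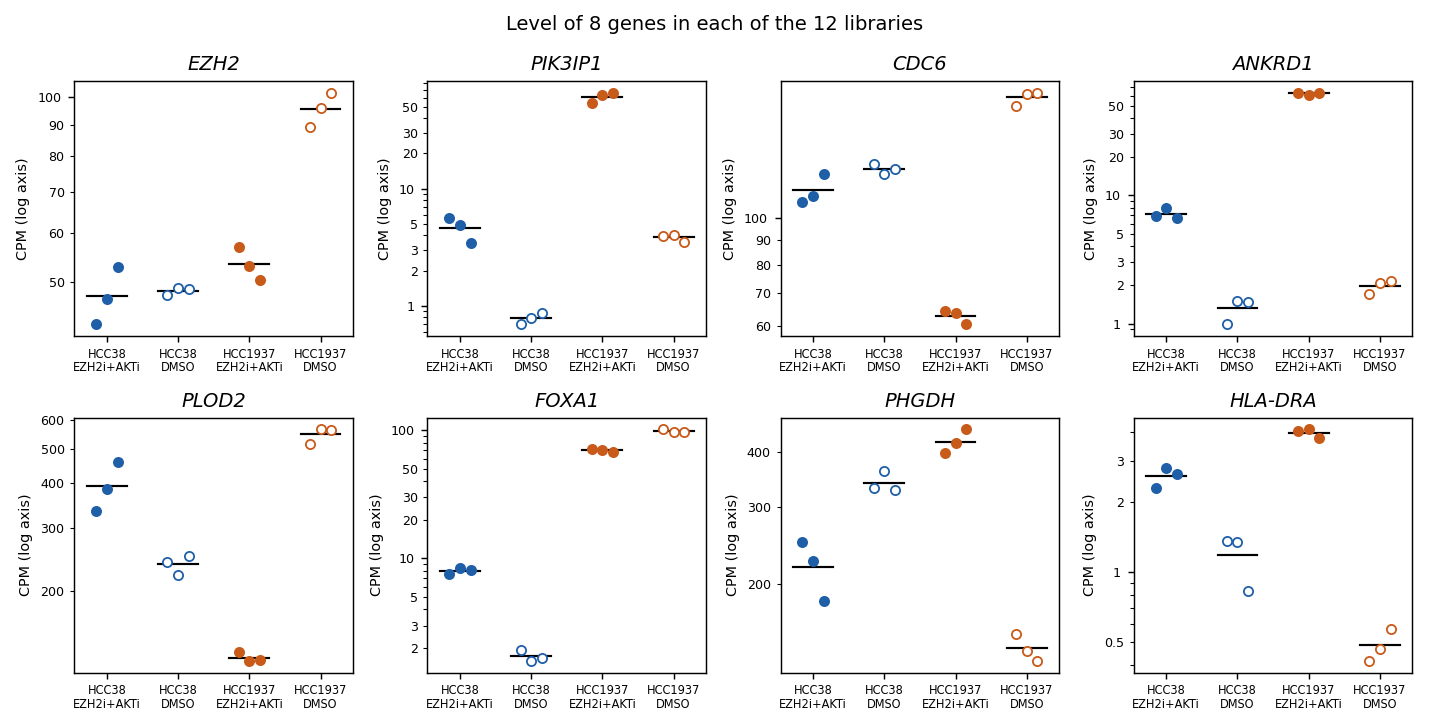
Level of 8 genes in each library, in CPM on log axes, with treated HCC38, HCC38 in DMSO, treated HCC1937 and HCC1937 in DMSO from left to right. Filled points are treated and open points DMSO libraries, and bars are means of 3. EZH2 was lower under treatment in HCC1937, FOXA1 had its lowest levels in HCC38 under DMSO, PIK3IP1 and ANKRD1 rose further in HCC1937, and PLOD2 and PHGDH moved in opposite directions in the 2 lines.

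Genes that report the output of ERK, the kinase downstream of RAS, rose in both lines as well. Of 22 tested, 16 rose and 0 fell in HCC38 and 16 rose and 2 fell in HCC1937. Differences were called lower for 9 and higher for 4 (59.1% called, against 28.8% of all genes, median difference -0.22). DUSP6, a phosphatase that switches ERK off and that was named after its values were seen, was at 41.6, 47.8 and 43.8 CPM in HCC38 under EZH2i+AKTi, against 9.602, 9.76 and 10.1 CPM in HCC38 under DMSO. In HCC1937, DUSP6 was at 44.8, 42.8 and 45.3 CPM under EZH2i+AKTi, against 5.22, 6.57 and 6.61 CPM under DMSO. Treated libraries stood far above DMSO in each line, with nearly equal treated means. ETV1 and ETV5, transcription factors induced by ERK, had differences of -1.24 ± 0.15 (adjusted p = 2.17e-05) and -1.17 ± 0.11 (adjusted p = 2.19e-06). ETV5 overlaps DGKG on its own strand. MYC, a driver of growth that AKT and ERK both act on, was at 251, 235 and 240.4 CPM in HCC38 under EZH2i+AKTi, against 228, 233 and 230.4 CPM in HCC38 under DMSO. In HCC1937, MYC was at 145, 144 and 144 CPM under EZH2i+AKTi, against 58.5, 65.2 and 72.3 CPM under DMSO. It rose in HCC1937 by 1.14 ± 0.076 and changed by 0.071 ± 0.074 in HCC38 (adjusted p = 0.492), where its DMSO level was already above that of treated HCC1937 (difference -1.07 ± 0.11, adjusted p = 2.40e-06). PHLDA2, an imprinted growth suppressor of the placenta, differed in sign, with a rise in HCC38 (0.34 ± 0.081), a fall in HCC1937 (-0.64 ± 0.082) and a difference of 0.98 ± 0.12 (adjusted p = 1.43e-05). CCND1, the gene of cyclin D1, rose in both (0.48 ± 0.067 in HCC38 and 0.74 ± 0.067 in HCC1937), with a difference of -0.25 ± 0.094 that missed the threshold (adjusted p = 0.0553) and passed it without replicate B of DMSO or replicate A or C of EZH2i+AKTi in HCC38 (0.0142 to 0.0495).

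DNA replication genes fell less in HCC38 than in HCC1937. Of 45 tested G1/S and replication genes, 23 fell and 1 rose in HCC38, against all 45 that fell in HCC1937, and 35 differences were called higher and 0 lower, beside 15.9% called higher over all genes. The median log2 change was -0.20 in HCC38 and -0.86 in HCC1937, and the median difference 0.73. The count of falls in HCC38 was 15 without replicate B of EZH2i+AKTi. These genes are classic targets of E2F factors, which are released from RB as cells pass into S phase. Of the list's genes 30 had exactly 1 RefSeq promoter (250 bases before to 50 after the start, GRCh38.p14). Genes with none or with several were left out, except from the share of all promoters. An E2F-like word, TTNNCGC on either strand, was present in 26 of them (86.7%), against 40.7% of 6306 promoters of protein-coding genes at 2 CPM or more in both lines and 25.3% of all 35116 promoters. The promoters of 3 genes of the list follow, chosen after the values were seen because the gene has a called difference and a match near its start. CLSPN encodes claspin, an adaptor of the replication checkpoint, DTL a ubiquitin ligase subunit that removes the licensing factor CDT1, and CDC6 a protein that loads the MCM helicase at origins. Capitals mark the matches, 1 in CLSPN, 3 in DTL and 1 in CDC6, none overlapping another. The windows are CLSPN chr1:35769929-35770228 on the minus strand, DTL chr1:212035498-212035797 on the plus strand and CDC6 chr17:40287629-40287928 on the plus strand, each written 5′ to 3′ along the gene. A match is a description of the letters and not a site shown to be bound.
CLSPN: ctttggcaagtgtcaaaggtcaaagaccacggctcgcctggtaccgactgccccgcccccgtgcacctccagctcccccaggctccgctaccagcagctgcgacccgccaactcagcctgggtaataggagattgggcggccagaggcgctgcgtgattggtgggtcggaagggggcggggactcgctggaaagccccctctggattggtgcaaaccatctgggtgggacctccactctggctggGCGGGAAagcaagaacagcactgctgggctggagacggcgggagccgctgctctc
DTL: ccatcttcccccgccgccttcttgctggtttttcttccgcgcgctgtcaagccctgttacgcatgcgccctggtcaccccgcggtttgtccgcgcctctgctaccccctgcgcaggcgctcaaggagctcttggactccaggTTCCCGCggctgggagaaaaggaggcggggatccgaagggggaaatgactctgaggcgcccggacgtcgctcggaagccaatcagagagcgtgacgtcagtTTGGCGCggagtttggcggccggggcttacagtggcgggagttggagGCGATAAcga
CDC6: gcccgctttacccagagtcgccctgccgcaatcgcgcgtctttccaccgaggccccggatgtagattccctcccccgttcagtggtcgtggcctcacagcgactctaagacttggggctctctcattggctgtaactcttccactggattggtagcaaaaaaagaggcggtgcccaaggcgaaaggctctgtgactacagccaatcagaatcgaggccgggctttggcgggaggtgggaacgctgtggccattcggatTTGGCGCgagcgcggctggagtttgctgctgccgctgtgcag

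The levels of the same genes show how the lines parted. CDC6 was at 108, 111 and 123 CPM in HCC38 under EZH2i+AKTi, against 129.6, 123 and 126 CPM in HCC38 under DMSO. In HCC1937, CDC6 was at 64.2, 63.8 and 60.4 CPM under EZH2i+AKTi, against 171, 180.5 and 182 CPM under DMSO. Treated HCC38 libraries slightly overlapped their DMSO libraries, while treated HCC1937 libraries were far below theirs (HCC38 -0.15 ± 0.070, adjusted p = 0.119; HCC1937 -1.499 ± 0.071; difference 1.35 ± 0.10, adjusted p = 1.12e-07). CLSPN was at 16.9, 18.4 and 19.7 CPM in HCC38 under EZH2i+AKTi, against 20.1, 17.2 and 20.8 CPM in HCC38 under DMSO. In HCC1937, CLSPN was at 10.4, 8.64 and 8.17 CPM under EZH2i+AKTi, against 33.6, 37.3 and 34.2 CPM under DMSO. Its groups overlapped in HCC38 and were far apart in HCC1937 (difference 1.88 ± 0.15, adjusted p = 2.75e-07). RRM2, the regulatory subunit of ribonucleotide reductase, was at 61.9, 69.3 and 81.8 CPM in HCC38 under EZH2i+AKTi, against 62.5, 64.7 and 63.8 CPM in HCC38 under DMSO. In HCC1937, RRM2 was at 69.7, 65.4 and 68.6 CPM under EZH2i+AKTi, against 180.5, 188 and 189.8 CPM under DMSO. Its treated levels overlapped between the lines, and its DMSO level was higher in HCC1937 (difference 1.61 ± 0.12, adjusted p = 1.72e-07). DTL, named after its values were seen, had a difference of 1.41 ± 0.14 (adjusted p = 3.31e-06), MCM6, a subunit of the replicative helicase, 0.72 ± 0.088 (adjusted p = 1.99e-05), and MCM10, a factor that activates that helicase, 1.29 ± 0.10 (adjusted p = 1.88e-07).

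Mitotic genes showed the same order with smaller values. Of 35 tested, 15 fell and 3 rose in HCC38, and 27 fell and 0 rose in HCC1937. Differences were called higher for 15 and lower for 1 (45.7% called, against 28.8% of all genes, median difference 0.21). MKI67, which encodes the proliferation marker Ki-67, was at 104, 130.1 and 114 CPM in HCC38 under EZH2i+AKTi, against 96.6, 92.04 and 96.7 CPM in HCC38 under DMSO. In HCC1937, MKI67 was at 255, 236 and 239.9 CPM under EZH2i+AKTi, against 369.9, 431 and 420.4 CPM under DMSO. Treated libraries were above DMSO in HCC38 and below DMSO in HCC1937, and every HCC1937 library exceeded every HCC38 library. The changes were 0.29 ± 0.085 in HCC38 (adjusted p = 0.01496, and 0.0635 and 0.104 without replicate B of DMSO and of EZH2i+AKTi in HCC38) and -0.74 ± 0.084 in HCC1937, with a difference of 1.03 ± 0.12 (adjusted p = 1.32e-05). PLK4, the kinase of centriole duplication, differed by 1.06 ± 0.15 (adjusted p = 6.72e-05), BUB1B, a spindle checkpoint kinase gene, by 0.79 ± 0.12 (adjusted p = 1.24e-04), and ANLN, the cytokinesis scaffold anillin, by 1.02 ± 0.15 (adjusted p = 1.24e-04). The 3 rises in HCC38 were 0 without replicate B of DMSO or of EZH2i+AKTi in HCC38, and 7 without replicate A of EZH2i+AKTi.

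Inhibitors of cyclin-dependent kinases gave both signs. CDKN1A, the gene of p21, was at 118, 101 and 85.7 CPM in HCC38 under EZH2i+AKTi, against 28.1, 28.8 and 29.9 CPM in HCC38 under DMSO. In HCC1937, CDKN1A was at 138, 158 and 160.02 CPM under EZH2i+AKTi, against 135, 115 and 107 CPM under DMSO. Treated HCC38 libraries stood far above their DMSO libraries, whereas the HCC1937 groups were close (HCC38 1.81 ± 0.12; HCC1937 0.35 ± 0.11, adjusted p = 0.0138, and 0.0541 to 0.081 without replicate B or C of either HCC1937 group). The difference was 1.46 ± 0.16 (adjusted p = 5.97e-06). CDKN1B, the gene of p27 and a FOXO target, rose in HCC1937 (0.38 ± 0.075) while its change in HCC38 was not called (-0.052 ± 0.076, adjusted p = 0.639), with a difference of -0.43 ± 0.11 (adjusted p = 0.00684). CDKN2C and CDKN2D, inhibitors of the cyclin D kinases, had differences of -0.38 ± 0.17 and 0.40 ± 0.21 (adjusted p = 0.107 and 0.166); that of CDKN2C was called without replicate A of EZH2i+AKTi in HCC38 (0.0135) and that of CDKN2D without replicate C (0.0040).

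Glycolysis genes fell in both lines and further in HCC1937. Of 23 tested, 14 fell and 1 rose in HCC38, and 20 fell and 1 rose in HCC1937. Differences were called higher for 16 and lower for 0 (69.6% called, against 28.8% of all genes). Median changes were -0.44 in HCC38 and -0.84 in HCC1937. LDHA, lactate dehydrogenase A, was at 1407, 1442 and 1631 CPM in HCC38 under EZH2i+AKTi, against 2404, 2506 and 2419.8 CPM in HCC38 under DMSO. In HCC1937, LDHA was at 611, 586 and 628 CPM under EZH2i+AKTi, against 2184, 2233 and 2148 CPM under DMSO. The DMSO levels of the lines were close, and treated HCC1937 libraries were well below treated HCC38 libraries (HCC38 -0.71 ± 0.068; HCC1937 -1.85 ± 0.070; difference 1.14 ± 0.10, adjusted p = 4.76e-07). GPI, glucose-6-phosphate isomerase, was at 289, 265 and 268 CPM in HCC38 under EZH2i+AKTi, against 474, 503 and 477 CPM in HCC38 under DMSO. In HCC1937, GPI was at 171, 168 and 182 CPM under EZH2i+AKTi, against 667, 657 and 643 CPM under DMSO. It fell in both lines, and the order of the lines under DMSO was inverted under treatment (difference 1.09 ± 0.091, adjusted p = 4.45e-07). PGK1, phosphoglycerate kinase 1, differed by 1.02 ± 0.092 (adjusted p = 9.25e-07), and PFKFB4, which makes the activator fructose 2,6-bisphosphate, by 1.57 ± 0.16 (adjusted p = 3.06e-06). Near-identical pseudogenes of LDHA and PGK1 may take part of their reads. PGK1 overlaps ATP7A, and PFKFB4 overlaps UCN2, each on its own strand.

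**Figure D3:**
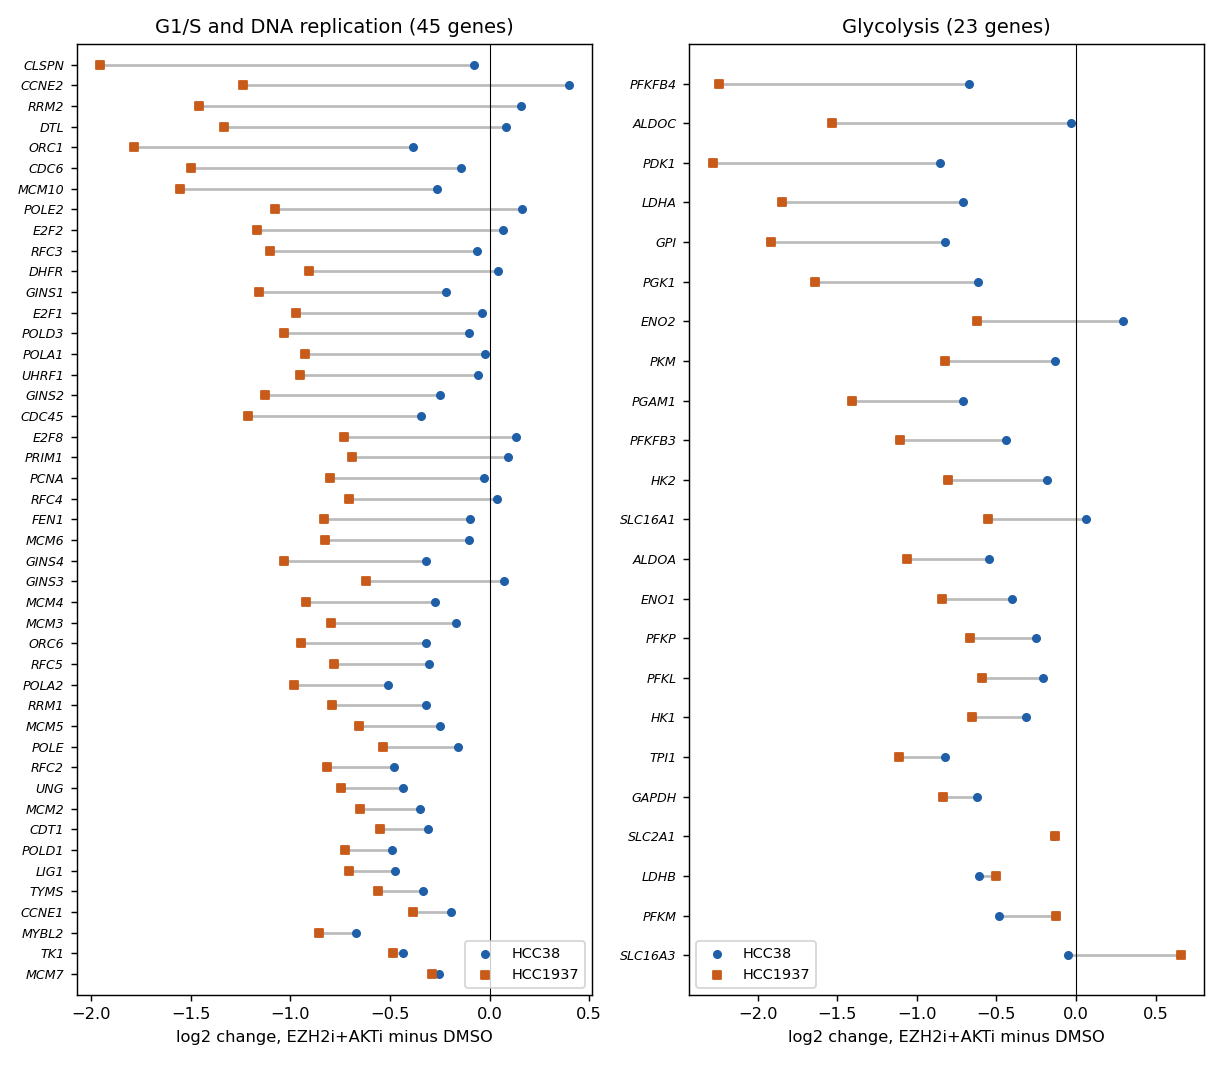
Log2 change of each replication gene (left) and each glycolysis gene (right), 1 row per gene, with HCC38 as a circle joined to HCC1937 as a square. The HCC1937 squares of the replication list all lie below 0, with a median of -0.86, and the HCC38 circles have a median of -0.20. For glycolysis the medians are -0.44 in HCC38 and -0.84 in HCC1937.

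Hypoxia-inducible genes, targets of HIF factors, gave 11 higher and 4 lower differences among 20 tested (75% called, against 28.8% of all genes). Falls numbered 11 in HCC38 and 14 in HCC1937, and rises 4 and 3 in HCC38 and HCC1937. The share of rises in HCC38 was near the 19.9% of all genes. PLOD2, a lysyl hydroxylase of collagen, was at 334, 384 and 459 CPM in HCC38 under EZH2i+AKTi, against 241, 221 and 249.96 CPM in HCC38 under DMSO. In HCC1937, PLOD2 was at 135, 127 and 128 CPM under EZH2i+AKTi, against 514, 566 and 565 CPM under DMSO. It rose in HCC38 and fell in HCC1937 with no overlap of groups, so that the line with the higher DMSO level had the lower treated level (HCC38 0.73 ± 0.10; HCC1937 -2.07 ± 0.10; difference 2.80 ± 0.14, adjusted p = 2.59e-09). ANGPTL4, a secreted inhibitor of lipoprotein lipase, was at 94.4, 82.8 and 65.7 CPM in HCC38 under EZH2i+AKTi, against 79.3, 88.4 and 81.3 CPM in HCC38 under DMSO. In HCC1937, ANGPTL4 was at 6.24, 7.503 and 7.26 CPM under EZH2i+AKTi, against 40.3, 41.1 and 43.7 CPM under DMSO. Its groups overlapped in HCC38 and stood far apart in HCC1937 (difference 2.53 ± 0.16, adjusted p = 2.82e-08). BNIP3, a mitophagy receptor, differed by 1.41 ± 0.094 (adjusted p = 4.29e-08) and P4HA2, a collagen prolyl hydroxylase subunit, by 1.24 ± 0.11 (adjusted p = 6.80e-07). DDIT4, an mTORC1 inhibitor induced by stress, went against the list: it was at 5.49, 3.68 and 3.52 CPM in HCC38 under EZH2i+AKTi, against 17.1, 18.5 and 16.8 CPM in HCC38 under DMSO. In HCC1937, DDIT4 was at 147, 152 and 153 CPM under EZH2i+AKTi, against 379, 305 and 289 CPM under DMSO. It fell in both lines and by more on the log2 scale in HCC38 (difference -0.94 ± 0.19, adjusted p = 0.00143).

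Genes of cholesterol synthesis and uptake, which SREBP2 drives when sterols are low, had mostly higher differences among those called. Of 25 tested, 12 rose and 2 fell in HCC38 (19.9% of all genes rose there), 5 rose and 6 fell in HCC1937 (26.1% of all genes rose there), and 10 differences were called higher and 1 lower, against 15.9% and 12.9% of all genes. Without replicate C of EZH2i+AKTi in HCC1937 the rises there were 3. STARD4, a sterol carrier, was at 22.4, 29.5 and 30.8 CPM in HCC38 under EZH2i+AKTi, against 8.38, 8.88 and 9.38 CPM in HCC38 under DMSO. In HCC1937, STARD4 was at 28.7, 25.3 and 26.3 CPM under EZH2i+AKTi, against 28.9, 28.6 and 28.2 CPM under DMSO. It rose in HCC38, where the treated level was near that of both HCC1937 groups (difference 1.73 ± 0.15, adjusted p = 7.80e-07). INSIG1, the sterol sensor that retains SREBP, rose in HCC38 (0.57 ± 0.082) and fell in HCC1937 (-0.38 ± 0.079), with a difference of 0.95 ± 0.11 (adjusted p = 1.86e-05). HMGCS1, the enzyme before the rate-limiting step, differed by 0.73 ± 0.12 (adjusted p = 2.34e-04).

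Targets of YAP and TEAD, effectors of the Hippo pathway, rose in both lines. Of 18 tested, 11 rose and 2 fell in HCC38, and 11 rose and 3 fell in HCC1937. Differences were called lower for 8 and higher for 5 (72.2% called, against 28.8% of all genes). ANKRD1, CTGF and CYR61, widely used readouts of the pathway, all had lower differences. ANKRD1, a cardiac ankyrin repeat protein gene, has a promoter with the TEAD word GGAATG on either strand, shown here because it is the YAP target on the list with the difference of largest size. The word was in 5 of 8 promoters of the list (62.5%), against 10.1% of the 6306 promoters of protein-coding genes at 2 CPM or more in both lines and 14% of all promoters. Capitals mark 2 matches that do not overlap, in chr10:90921038-90921337 on the minus strand of GRCh38.p14, written 5′ to 3′ along the gene.
ANKRD1: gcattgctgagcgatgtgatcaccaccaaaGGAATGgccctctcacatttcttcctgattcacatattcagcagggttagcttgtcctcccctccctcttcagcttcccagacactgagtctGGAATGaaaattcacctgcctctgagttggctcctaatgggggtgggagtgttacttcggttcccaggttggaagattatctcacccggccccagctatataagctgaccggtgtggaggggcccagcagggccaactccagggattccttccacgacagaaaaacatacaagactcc

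ANKRD1 was at 6.92, 7.95 and 6.71 CPM in HCC38 under EZH2i+AKTi, against 0.986, 1.49 and 1.47 CPM in HCC38 under DMSO. In HCC1937, ANKRD1 was at 63.4, 60.95 and 63.5 CPM under EZH2i+AKTi, against 1.71, 2.06 and 2.15 CPM under DMSO. DMSO levels were low in both lines, and treated HCC1937 libraries were far above treated HCC38 libraries (HCC38 2.45 ± 0.14; HCC1937 4.98 ± 0.13; difference -2.53 ± 0.20, adjusted p = 2.42e-07). CTGF, a matricellular protein gene also called CCN2, was at 93.1, 93.97 and 104 CPM in HCC38 under EZH2i+AKTi, against 15.8, 15.7 and 17.2 CPM in HCC38 under DMSO. In HCC1937, CTGF was at 157, 176 and 177 CPM under EZH2i+AKTi, against 4.14, 5.23 and 6.23 CPM under DMSO. It rose in both lines without overlap, and HCC1937 had the higher treated and the lower DMSO level (difference -2.45 ± 0.16, adjusted p = 2.82e-08). CYR61, its relative CCN1, was at 3763, 3442 and 2794 CPM in HCC38 under EZH2i+AKTi, against 1974, 2002 and 1989.9 CPM in HCC38 under DMSO. In HCC1937, CYR61 was at 492, 552 and 523 CPM under EZH2i+AKTi, against 87.2, 86.7 and 102 CPM under DMSO. It rose in both lines and was higher in every HCC38 library than in any HCC1937 library (difference -1.76 ± 0.14, adjusted p = 2.02e-07). AMOTL1, which holds YAP in the cytoplasm, had the opposite difference, 1.02 ± 0.13 (adjusted p = 3.90e-05), with a rise of 1.29 ± 0.10 in HCC38.

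Genes of BH3-only proteins, which trigger mitochondrial cell death, were mixed. Among 8 tested, 2 differences were called higher and 3 lower (62.5% called, against 28.8% of all genes). BMF, a BH3-only gene, was at 0.478, 0.868 and 0.4399 CPM in HCC38 under EZH2i+AKTi, against 0.522, 0.366 and 0.489 CPM in HCC38 under DMSO. In HCC1937, BMF was at 25.2, 28.1 and 26.8 CPM under EZH2i+AKTi, against 10.7, 12.1 and 8.33 CPM under DMSO. It rose in every treated HCC1937 library and stayed under 1 CPM in every HCC38 library (HCC38 0.39 ± 0.31, adjusted p = 0.356; HCC1937 1.37 ± 0.15). The difference, -0.97 ± 0.35, was just called (adjusted p = 0.0492) and was not called when any single library was left out except replicate B of EZH2i+AKTi in HCC38 or of DMSO in HCC1937 (adjusted p 0.0538 to 0.144). HRK, another BH3-only gene, was at 5.97, 6.17 and 5.03 CPM in HCC38 under EZH2i+AKTi, against 1.68, 1.68 and 1.35 CPM in HCC38 under DMSO. In HCC1937, HRK was at 37.97, 37.7 and 40.6 CPM under EZH2i+AKTi, against 6.34, 5.34 and 5.91 CPM under DMSO. The rise was called in both lines and was larger in HCC1937 (difference -0.86 ± 0.17, adjusted p = 0.00161). BBC3, the gene of PUMA, rose in both (1.06 ± 0.26 in HCC38 and 2.20 ± 0.26 in HCC1937), and its difference of -1.14 ± 0.36 (adjusted p = 0.03103) was not called without a single library in 8 cases (0.051 to 0.077): any HCC38 DMSO library, HCC38 EZH2i+AKTi replicate B, or replicate B or C of either HCC1937 group. PMAIP1, the gene of NOXA, was at 220.03, 256 and 284 CPM in HCC38 under EZH2i+AKTi, against 175, 171 and 171 CPM in HCC38 under DMSO. In HCC1937, PMAIP1 was at 12.5, 12.4 and 14.05 CPM under EZH2i+AKTi, against 12.9, 13.5 and 13.1 CPM under DMSO. PMAIP1 rose in HCC38, where its level far exceeded that of HCC1937 in every library (difference 0.58 ± 0.13, adjusted p = 0.00302). BCL2L11, the gene of BIM, had a difference of 0.19 ± 0.14 (adjusted p = 0.308). Of the survival genes, BCL2L1, which encodes BCL-xL, rose in both lines and by more in HCC1937 (difference -0.89 ± 0.16, adjusted p = 5.40e-04), and MCL1 differed by 0.21 ± 0.087 (adjusted p = 0.0812, and 0.0499 without replicate A of EZH2i+AKTi in HCC38).

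Luminal mammary genes split by gene. Among 24 tested, 7 differences were called higher and 6 lower (54.2% called, against 28.8% of all genes). Rises and falls numbered 9 and 4 in HCC38, against 19.9% and 15.4% of all genes. In HCC1937 they numbered 7 and 7, against 26.1% and 22.8% of all genes. The falls in HCC38 and the rises in HCC1937 were near those shares. The falls in HCC38 were 2 without replicate B of DMSO. GATA3, a master factor of luminal cells, was at 104, 95.9 and 96.5 CPM in HCC38 under EZH2i+AKTi, against 51.7, 50.7 and 49.1 CPM in HCC38 under DMSO. In HCC1937, GATA3 was at 192, 178 and 198 CPM under EZH2i+AKTi, against 60.3, 60.6 and 57.99 CPM under DMSO. It rose in both lines, which had similar DMSO levels, and further in HCC1937 (difference -0.70 ± 0.10, adjusted p = 6.74e-05). FOXA1, a pioneer factor for the estrogen receptor, was at 7.58, 8.41 and 8.08 CPM in HCC38 under EZH2i+AKTi, against 1.94, 1.59 and 1.67 CPM in HCC38 under DMSO. In HCC1937, FOXA1 was at 71.6, 69.4 and 68.1 CPM under EZH2i+AKTi, against 101, 96.6 and 96.98 CPM under DMSO. It was below 2 CPM in HCC38 under DMSO, rose there and fell in HCC1937 (difference 2.70 ± 0.13, adjusted p = 2.05e-09; it overlaps TTC6 on the opposite strand). EHF, an epithelial ETS factor, and ESR1, a marker named for the check of the lines, moved the same way, with differences of 1.95 ± 0.17 (adjusted p = 6.62e-07) and 1.15 ± 0.16 (adjusted p = 5.17e-05); each rose in HCC38 and fell in HCC1937. ALDH1A3, a retinaldehyde dehydrogenase of luminal progenitors, did the reverse: it was at 217, 209.5 and 207 CPM in HCC38 under EZH2i+AKTi, against 287, 273 and 283 CPM in HCC38 under DMSO. In HCC1937, ALDH1A3 was at 676, 713 and 698 CPM under EZH2i+AKTi, against 388, 369 and 357 CPM under DMSO. It fell in HCC38 and rose in HCC1937 (difference -1.32 ± 0.088, adjusted p = 4.28e-08). ELF3, an epithelial ETS factor, differed by -0.25 ± 0.13 (adjusted p = 0.163).

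Among keratins, KRT5, a basal keratin, was at 2.42, 1.48 and 1.92 CPM in HCC38 under EZH2i+AKTi, against 4.26, 4.27 and 5.18 CPM in HCC38 under DMSO. In HCC1937, KRT5 was at 1.03, 0.831 and 1.38 CPM under EZH2i+AKTi, against 6.54, 6.57 and 6.46 CPM under DMSO. It fell in both lines and further in HCC1937 (difference 1.34 ± 0.27, adjusted p = 0.00174). KRT14, its partner, was under 0.5 CPM in all HCC38 libraries and fell in HCC1937 (-1.16 ± 0.18; difference -0.23 ± 0.54, adjusted p = 0.789). KRT8 and KRT18, simple epithelial keratins whose genes overlap on opposite strands, had differences of -0.21 ± 0.17 and 0.31 ± 0.13 (adjusted p = 0.399 and 0.0741); KRT18 was called without replicate C of EZH2i+AKTi in HCC38 (0.00117) or in HCC1937 (0.0429). VIM differed by 0.35 ± 0.14 (adjusted p = 0.0685), called without replicate A of EZH2i+AKTi in HCC38 (0.0186) or of DMSO in HCC1937 (0.0162).

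Integrins and laminins, receptors and building blocks of the basement membrane, mostly rose in HCC38 and moved in both directions in HCC1937. Of 19 tested, 15 rose and 0 fell in HCC38, and 7 rose and 8 fell in HCC1937, with 6 genes called in opposite directions. Differences were called higher for 12 and lower for 2 (73.7% called, against 28.8% of all genes). The median change was 0.64 in HCC38 and 0.068 in HCC1937. ITGA6, the alpha6 integrin that binds laminin, was at 138, 148 and 176 CPM in HCC38 under EZH2i+AKTi, against 95.3, 84.97 and 98.2 CPM in HCC38 under DMSO. In HCC1937, ITGA6 was at 162, 154 and 162 CPM under EZH2i+AKTi, against 305, 349 and 339 CPM under DMSO. Treated libraries were higher than DMSO in HCC38 and lower than DMSO in HCC1937, and the treated levels of the lines overlapped (difference 1.79 ± 0.13, adjusted p = 9.77e-08). LAMA3, a chain of laminin-332, rose in HCC38 and fell in HCC1937, with a difference of 1.17 ± 0.10 (adjusted p = 4.76e-07). ITGB4, the beta4 integrin that pairs with ITGA6 in hemidesmosomes, had 1 of the 2 lower differences: it was at 196, 172 and 151 CPM in HCC38 under EZH2i+AKTi, against 138, 129.9 and 137 CPM in HCC38 under DMSO. In HCC1937, ITGB4 was at 1638, 1675 and 1662 CPM under EZH2i+AKTi, against 557, 547 and 552 CPM under DMSO. It rose in both lines and by more in HCC1937 (difference -1.23 ± 0.11, adjusted p = 1.23e-06; it overlaps GALK1 on the opposite strand). ITGB5, the beta5 integrin, had the other lower difference (-0.73 ± 0.11, adjusted p = 1.46e-04) and rose in both lines too.

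Cell junction genes gave 12 higher and 4 lower differences among 31 tested (51.6% called, against 28.8% of all genes). They had 6 rises and 9 falls in HCC38 and 7 rises and 17 falls in HCC1937. The lower differences were near the 12.9% of all genes. The rises were near the 19.9% of all genes in HCC38 and the 26.1% in HCC1937. The lower count was 2 without replicate C of either HCC1937 group. CDH1, E-cadherin, was at 218, 205 and 249.8 CPM in HCC38 under EZH2i+AKTi, against 248, 236 and 254 CPM in HCC38 under DMSO. In HCC1937, CDH1 was at 308, 300.1 and 321 CPM under EZH2i+AKTi, against 663, 737 and 719 CPM under DMSO. It fell in HCC1937, and its HCC38 groups overlapped (difference 1.06 ± 0.11, adjusted p = 4.08e-06). PKP1 and PKP2, desmosomal plakophilins, rose in HCC38 and fell in HCC1937, with differences of 2.49 ± 0.16 (adjusted p = 2.82e-08) and 1.53 ± 0.12 (adjusted p = 3.14e-07). CLDN1, a tight junction claudin, rose in both lines and by more in HCC38 (difference 0.94 ± 0.12, adjusted p = 4.33e-05).

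Developmental regulators known as Polycomb targets had more higher than lower differences. Of 43 tested, 24 rose and 7 fell in HCC38 (19.9% of all genes rose there), 14 rose and 6 fell in HCC1937 (26.1% of all genes rose there), and 19 differences were called higher and 7 lower, against 15.9% and 12.9% of all genes (median difference 0.38). Without replicate A or B of DMSO in HCC38, or B or C of DMSO in HCC1937, 4 were called lower. FOXF2, a forkhead factor of mesenchyme, was at 8.23, 8.45 and 8.19 CPM in HCC38 under EZH2i+AKTi, against 1.62, 2.99 and 1.76 CPM in HCC38 under DMSO. In HCC1937, FOXF2 was at 18.6, 16.97 and 17.1 CPM under EZH2i+AKTi, against 17.2, 17.3 and 18.8 CPM under DMSO. Its treated HCC38 libraries lay between HCC38 in DMSO and HCC1937. LHX2, a homeodomain factor of the forebrain and limb, was at 7.85, 8.61 and 8.25 CPM in HCC38 under EZH2i+AKTi, against 3.51, 2.68 and 2.96 CPM in HCC38 under DMSO. In HCC1937, LHX2 was at 20.4, 18.9 and 18.4 CPM under EZH2i+AKTi, against 20.8, 18.8 and 18.8 CPM under DMSO. Both genes rose in HCC38 and had overlapping groups at a higher level in HCC1937 (differences 1.99 ± 0.21, adjusted p = 4.87e-06, and 1.45 ± 0.15, adjusted p = 3.83e-06). GATA6, a factor of endoderm, had a difference of 1.18 ± 0.12 (adjusted p = 3.01e-06) and a rise of 0.97 ± 0.087 in HCC38. WT1, a factor of kidney and gonad development, got its difference from the other line: it was at 19.2, 18.9 and 21.4 CPM in HCC38 under EZH2i+AKTi, against 19.8, 18.8 and 21.1 CPM in HCC38 under DMSO. In HCC1937, WT1 was at 2.19, 2.19 and 2.32 CPM under EZH2i+AKTi, against 7.003, 7.51 and 7.42 CPM under DMSO. The groups overlapped in HCC38, and it fell in HCC1937 (difference 1.70 ± 0.14, adjusted p = 3.22e-07).

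The 10 protein-coding genes with the largest differences and the 10 with the most negative ones, among genes with at least 2 CPM in some group of each line, were read beside their DMSO levels. Of the 10 largest, 9 had a lower DMSO level in HCC38 than in HCC1937, and 8 were under 2 CPM in HCC38 under DMSO. Of the 10 most negative, all 10 had a higher DMSO level in HCC38, and 7 were under 2 CPM in HCC1937 under DMSO. The baseline and the difference share their DMSO libraries, so this order is a description and no test is given. PLCXD3, a phosphatidylinositol phospholipase domain protein gene, was at 3.67, 4.02 and 5.498 CPM in HCC38 under EZH2i+AKTi, against 0.2901, 0.336 and 0.345 CPM in HCC38 under DMSO. In HCC1937, PLCXD3 was at 8.403, 8.21 and 8.33 CPM under EZH2i+AKTi, against 14.5, 16.6 and 15.3 CPM under DMSO. It rose in HCC38 and fell in HCC1937, with the largest difference of these genes (4.64 ± 0.24, adjusted p = 4.54e-09). SDC2, the heparan sulfate proteoglycan syndecan-2, was at 81.6, 85.6 and 101 CPM in HCC38 under EZH2i+AKTi, against 122, 109.6 and 115 CPM in HCC38 under DMSO. In HCC1937, SDC2 was at 1.89, 2.34 and 2.099 CPM under EZH2i+AKTi, against 0.0979, 0.0894 and 0.127 CPM under DMSO. It fell in HCC38 and rose in HCC1937, where it stayed below 3 CPM (difference -4.65 ± 0.25, adjusted p = 5.79e-09).

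The other leading genes covered several functions. Among the largest differences beside PLCXD3 were DSEL, an epimerase-like gene of dermatan sulfate (4.08 ± 0.36), COL13A1, a transmembrane collagen (3.55 ± 0.42), SPTSSB, a small subunit of serine palmitoyltransferase (3.36 ± 0.19), LIPG, endothelial lipase (3.12 ± 0.15), TMEM170B (3.06 ± 0.29), DPYD, the enzyme that breaks down pyrimidines (3.03 ± 0.17), PTGS2, the cyclooxygenase COX-2 (2.98 ± 0.24) and ELOVL2, an elongase of polyunsaturated fatty acids (2.94 ± 0.35). The most negative after SDC2 were SCNN1G and SCNN1B, subunits of the epithelial sodium channel (-4.54 ± 0.28 and -3.47 ± 0.28), TMEM37 (-3.87 ± 0.23), WISP2, a matricellular protein gene also called CCN5 (-3.74 ± 0.23), HLA-DRB5 of MHC class II (-3.69 ± 0.38), PLXDC2, a plexin domain protein gene (-3.30 ± 0.16), NUPR1, a stress-induced nuclear protein (-3.30 ± 0.28), ID4, an inhibitor of basic helix-loop-helix factors (-3.14 ± 0.13) and AARD (-3.04 ± 0.30). The genes named had adjusted p between 5.93e-10 (ID4) and 1.54e-05 (ELOVL2).

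**Figure D4:**
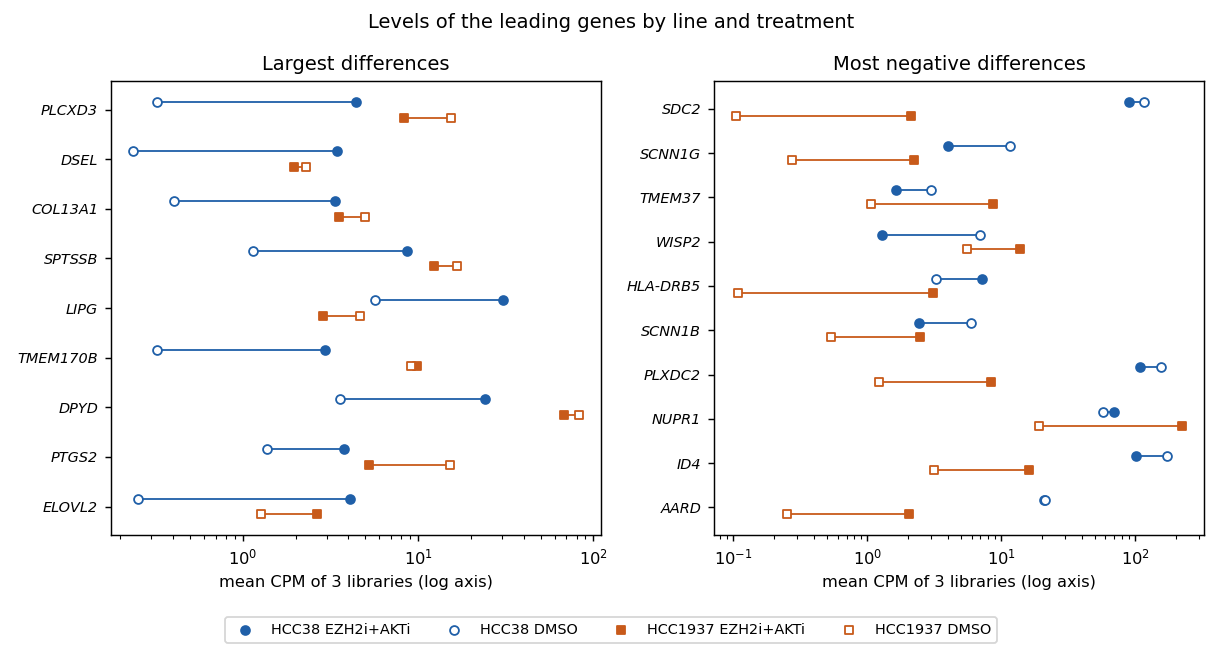
Mean CPM of 3 libraries on a log axis for 9 of the 10 genes with the largest differences (left) and the 10 with the most negative (right). Circles are HCC38 and squares HCC1937, filled under EZH2i+AKTi and open under DMSO, joined by a line. On the left the open circle of HCC38 is below 2 CPM in 7 of 9 genes, and on the right the open square of HCC1937 is below 2 CPM in 7 of 10.

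Genes called in opposite directions in the 2 lines covered a wide range of levels. LIPG was at 31.2, 29.8 and 30.7 CPM in HCC38 under EZH2i+AKTi, against 5.599, 5.797 and 5.699 CPM in HCC38 under DMSO. In HCC1937, LIPG was at 2.63, 2.62 and 3.31 CPM under EZH2i+AKTi, against 4.46, 4.72 and 4.76 CPM under DMSO. LIPG rose in HCC38 and fell in HCC1937. INHBA, the activin A subunit, was at 63.9, 64.9 and 74.8 CPM in HCC38 under EZH2i+AKTi, against 23.5, 19.01 and 23.7 CPM in HCC38 under DMSO. In HCC1937, INHBA was at 10.5, 11.03 and 10.9 CPM under EZH2i+AKTi, against 23.04, 25.8 and 31.1 CPM under DMSO. The DMSO levels of INHBA overlapped between the lines, and it rose in HCC38 and fell in HCC1937 (difference 2.92 ± 0.16, adjusted p = 7.97e-09). PTGS2 was at 3.02, 4.02 and 4.29 CPM in HCC38 under EZH2i+AKTi, against 1.25, 1.31 and 1.55 CPM in HCC38 under DMSO. In HCC1937, PTGS2 was at 5.44, 4.99 and 5.38 CPM under EZH2i+AKTi, against 12, 15.6 and 17.7 CPM under DMSO. The gap between the lines was narrower under treatment. FOXQ1, a forkhead factor, was at 18.7, 19.4 and 13.8 CPM in HCC38 under EZH2i+AKTi, against 3.31, 2.99 and 2.79 CPM in HCC38 under DMSO. In HCC1937, FOXQ1 was at 84.7, 80.1 and 84.5 CPM under EZH2i+AKTi, against 111, 96.4 and 97.5 CPM under DMSO. Its fall in HCC1937 was not called without replicate A of DMSO or replicate A or B of EZH2i+AKTi in HCC1937 (adjusted p 0.0557 to 0.127). The fall of DPYD in HCC1937 was likewise not called without replicate B or C of either HCC1937 group (0.0887 to 0.14).

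In the reverse direction, PLXDC2 was at 98.1, 101 and 127 CPM in HCC38 under EZH2i+AKTi, against 159.6, 148 and 157 CPM in HCC38 under DMSO. In HCC1937, PLXDC2 was at 8.57, 8.71 and 7.99 CPM under EZH2i+AKTi, against 1.03, 1.34 and 1.27 CPM under DMSO. It was far higher in every HCC38 library. ID4 was at 102, 92.8 and 108 CPM in HCC38 under EZH2i+AKTi, against 179, 179 and 161 CPM in HCC38 under DMSO. In HCC1937, ID4 was at 16.2, 15.8 and 16.4 CPM under EZH2i+AKTi, against 3.11, 3.53 and 2.76 CPM under DMSO. Both genes fell in HCC38 and rose in HCC1937, and ID4 too was higher in every HCC38 library. SCNN1G was at 3.95, 3.88 and 4.12 CPM in HCC38 under EZH2i+AKTi, against 11.3, 12.1 and 11.3 CPM in HCC38 under DMSO. In HCC1937, SCNN1G was at 2.52, 2.09 and 2.12 CPM under EZH2i+AKTi, against 0.122, 0.358 and 0.34 CPM under DMSO. SCNN1G and SCNN1B each fell in HCC38 and rose in HCC1937. GAS1, a growth arrest protein gene, was at 3.02, 3.04 and 2.83 CPM in HCC38 under EZH2i+AKTi, against 8.67, 7.78 and 8.26 CPM in HCC38 under DMSO. In HCC1937, GAS1 was at 5.74, 6.29 and 6.63 CPM under EZH2i+AKTi, against 3.18, 3.35 and 3.78 CPM under DMSO. The line with the higher level under DMSO, HCC38, had the lower level under treatment (difference -2.33 ± 0.17, adjusted p = 1.04e-07). WISP2 changed by -2.42 ± 0.18 in HCC38 and by 1.32 ± 0.15 in HCC1937.

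The third line, HCC1395, was set beside these genes in 1 fit of all 24 libraries, which held its single-inhibitor libraries too. Its change was EZH2i+AKTi minus DMSO, as in the other lines. In that fit the log2 change of INHBA was 1.63 ± 0.10 in HCC38, -1.31 ± 0.10 in HCC1937 and -0.28 ± 0.090 in HCC1395. PLOD2 changed by 0.74 ± 0.080 in HCC38, -2.08 ± 0.083 in HCC1937 and -0.82 ± 0.081 in HCC1395, so HCC1395 fell with HCC1937. FOXQ1 changed by 2.52 ± 0.11 in HCC38, -0.29 ± 0.088 in HCC1937 and 2.86 ± 0.16 in HCC1395, so HCC1395 rose with HCC38. ID4 changed by -0.76 ± 0.090 in HCC38, 2.36 ± 0.11 in HCC1937 and 1.16 ± 0.14 in HCC1395. In the fit of 12 libraries, 307 protein-coding genes at 2 CPM or more in both lines rose in HCC38 and fell in HCC1937. By the fit of 24 libraries, 82 of these rose and 107 fell in HCC1395. Another 172 fell in HCC38 and rose in HCC1937 in the fit of 12 libraries, of which 83 rose and 28 fell in HCC1395. Over all 11141 such genes, 28% rose and 33.8% fell in HCC1395.

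MHC class II genes, which present extracellular antigen, rose in both lines. Of 11 tested, 8 rose and 0 fell in HCC38, and 9 rose and 0 fell in HCC1937. Differences were called lower for 6 and higher for 0 (54.5% called, against 28.8% of all genes). HLA-DRA, the alpha chain of HLA-DR, was at 2.29, 2.81 and 2.64 CPM in HCC38 under EZH2i+AKTi, against 1.36, 1.34 and 0.835 CPM in HCC38 under DMSO. In HCC1937, HLA-DRA was at 4.02, 4.104 and 3.77 CPM under EZH2i+AKTi, against 0.416, 0.4696 and 0.574 CPM under DMSO. All levels were under 5 CPM, and treated libraries lay above DMSO in both lines (difference -1.88 ± 0.29, adjusted p = 1.79e-04). CD74, the invariant chain that guides class II assembly, was at 4.58, 2.95 and 2.36 CPM in HCC38 under EZH2i+AKTi, against 2.03, 2.38 and 1.96 CPM in HCC38 under DMSO. In HCC1937, CD74 was at 20.6, 20.2 and 22.9 CPM under EZH2i+AKTi, against 4.97, 4.56 and 5.29 CPM under DMSO. Only 1 treated HCC38 library overlapped DMSO, and the HCC1937 groups were far apart (difference -1.46 ± 0.26, adjusted p = 5.90e-04). The rise of CD74 in HCC38 was not called without DMSO replicate A or C or EZH2i+AKTi replicate A (adjusted p 0.063 to 0.106). That of HLA-DRB1, a beta chain gene, was not called without DMSO replicate C or EZH2i+AKTi replicate A or B of HCC38 (0.0574 to 0.103). Class I genes, which present peptides of the cell's own proteins, had more falls than rises in HCC38 and more rises than falls in HCC1937. Of 17 tested, 2 rose and 7 fell in HCC38, against 19.9% and 15.4% of all genes. In HCC1937, 7 rose and 4 fell, against 26.1% and 22.8% of all genes, so the falls there were near the share of all genes. Of 17 differences 10 were called lower and 1 higher (64.7% called, against 28.8% of all genes). PSMB8, an immunoproteasome subunit, fell in HCC38 (-0.40 ± 0.11) and rose in HCC1937 (0.41 ± 0.11; difference -0.81 ± 0.15, adjusted p = 9.20e-04). HLA genes are near-identical in part and differ between people, so reads can be split or lost between them.

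Interferon-stimulated genes showed no single direction in the difference, while falls outnumbered rises in each line. Of 43 tested, 11 differences were called higher and 9 lower (46.5% called, against 28.8% of all genes, median -0.013). Rises and falls numbered 6 and 14 in HCC38, against 19.9% and 15.4% of all genes. In HCC1937 they numbered 8 and 18, against 26.1% and 22.8% of all genes. The rises were 10 in HCC38 without its EZH2i+AKTi replicate A, and 5 in HCC1937 without replicate C of either group. GBP2, an interferon-induced GTPase, was at 8.86, 9.296 and 9.68 CPM in HCC38 under EZH2i+AKTi, against 6.41, 6.83 and 6.94 CPM in HCC38 under DMSO. In HCC1937, GBP2 was at 76.8, 82 and 84.2 CPM under EZH2i+AKTi, against 8.84, 8.27 and 8.24 CPM under DMSO. It rose in both lines (0.46 ± 0.086 in HCC38 and 3.26 ± 0.083 in HCC1937), from similar DMSO levels (difference -2.80 ± 0.12, adjusted p = 5.93e-10). IFIT2, an antiviral RNA-binding protein gene, fell in HCC38 (-0.61 ± 0.074) and rose in HCC1937 (0.76 ± 0.073; difference -1.37 ± 0.10, adjusted p = 1.71e-07), while IFIT1 fell in both (difference -0.53 ± 0.13, adjusted p = 0.00815); each overlaps LIPA on the opposite strand. STAT3, a signal transducer downstream of IL6 family cytokines, differed by 0.013 ± 0.088 (adjusted p = 0.945).

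Targets of NF-kB, the transcription factor of inflammation, gave 12 higher and 6 lower differences among 34 tested (52.9% called, against 28.8% of all genes). Rises and falls numbered 10 and 5 in HCC38, against 19.9% and 15.4% of all genes. In HCC1937 they numbered 4 and 11, against 26.1% and 22.8% of all genes. The falls in HCC38 were near the share of all genes. The lower count was 3 without replicate A of either HCC1937 group, and the rises in HCC38 were 5 without DMSO replicate A and 6 without EZH2i+AKTi replicate B. BIRC3, an inhibitor of apoptosis protein gene, was at 57.8, 67.7 and 82.3 CPM in HCC38 under EZH2i+AKTi, against 47.1, 42.2 and 48.2 CPM in HCC38 under DMSO. In HCC1937, BIRC3 was at 7.16, 6.47 and 4.89 CPM under EZH2i+AKTi, against 12.8, 12.8 and 14.6 CPM under DMSO. It rose in HCC38 and fell in HCC1937 with no overlap of groups (difference 1.72 ± 0.19, adjusted p = 9.37e-06). NFKB1, which encodes the p105 and p50 subunit, fell in HCC1937 (-0.55 ± 0.069; difference 0.77 ± 0.10, adjusted p = 3.16e-05), and TNFAIP3, the inhibitor A20, rose in HCC38 (0.52 ± 0.11; difference 0.87 ± 0.16, adjusted p = 8.80e-04). CXCL8, the chemokine interleukin-8, differed by 0.74 ± 0.22 (adjusted p = 0.0188, and 0.0604 without replicate C of DMSO in HCC1937).

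Genes of the amino acid stress response driven by ATF4 had mostly lower differences among those called. Of 25 tested genes 6 rose and 10 fell in HCC38, and 13 rose and 3 fell in HCC1937. Differences were called lower for 13 and higher for 2 (60% called, against 28.8% of all genes, median -0.59). PHGDH, the first enzyme of serine synthesis, was at 249.7, 226 and 183 CPM in HCC38 under EZH2i+AKTi, against 331, 362 and 327 CPM in HCC38 under DMSO. In HCC1937, PHGDH was at 396, 419 and 449.7 CPM under EZH2i+AKTi, against 154, 141 and 134 CPM under DMSO. The groups did not overlap in either line, and the order of the lines under DMSO was inverted under treatment (HCC38 -0.63 ± 0.10; HCC1937 1.56 ± 0.10; difference -2.19 ± 0.14, adjusted p = 2.96e-08). PSAT1, the next enzyme of that pathway, was at 95.3, 94.3 and 104 CPM in HCC38 under EZH2i+AKTi, against 154, 157 and 156 CPM in HCC38 under DMSO. In HCC1937, PSAT1 was at 524, 492 and 526 CPM under EZH2i+AKTi, against 341, 358 and 341 CPM under DMSO. It too fell in HCC38 and rose in HCC1937 (difference -1.24 ± 0.092, adjusted p = 1.32e-07). TRIB3, a pseudokinase that binds AKT, differed by -0.92 ± 0.092 (adjusted p = 2.87e-06) and DDIT3, the stress factor CHOP, by -0.88 ± 0.15 (adjusted p = 5.14e-04), both from rises in HCC1937. NUPR1, listed above among the most negative, was at 84.6, 76.8 and 46.8 CPM in HCC38 under EZH2i+AKTi, against 54.4, 66.3 and 53.05 CPM in HCC38 under DMSO. In HCC1937, NUPR1 was at 189.9, 230.1 and 252 CPM under EZH2i+AKTi, against 21.1, 19.99 and 15.9 CPM under DMSO. Its groups overlapped in HCC38, and it rose in HCC1937.

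Ribosomal protein genes had small differences of 1 sign. Of 46 tested, 32 differences were called lower and 0 higher (69.6% called, against 28.8% of all genes, median difference -0.49). There were 22 falls and 0 rises in HCC38 and 20 rises and 1 fall in HCC1937. Their summed level was 35082, 30998 and 28467 CPM in HCC38 under EZH2i+AKTi, against 37411, 42125 and 35797 CPM in HCC38 under DMSO, and 38473, 41177 and 44407 CPM in HCC1937 under EZH2i+AKTi, against 38166, 34896 and 34638 CPM in HCC1937 under DMSO. In each line the treated library with the most extreme sum was replicate C, which also had the highest mitochondrial share. The lower differences were 18 without replicate C of EZH2i+AKTi in HCC1937. Falls in HCC38 were 8 without DMSO replicate B, 14 without EZH2i+AKTi replicate B and 38 without EZH2i+AKTi replicate A (39 with no filter on low counts), and rises in HCC1937 were 12, 11 and 8 without DMSO replicate B, DMSO replicate C and EZH2i+AKTi replicate C. RPL15 differed by -0.54 ± 0.10 (adjusted p = 7.14e-04) and RPS20 by -0.62 ± 0.12 (adjusted p = 0.00116). The part of RNA quality or mitochondrial share in this group was not tested, and pseudogenes of these genes may take part of their reads. Of the 13 mitochondrially encoded genes 1 had a called difference, which was lower.

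Some genes rose in 1 line and were almost silent in the other, where a difference of log2 changes has little meaning, so only levels are given. Protein-coding genes that rose in 1 line, averaged 2 CPM or more there and were under 0.5 CPM in all 6 libraries of the other numbered 101 for HCC38 and 149 for HCC1937. DRAXIN, a repulsive axon guidance protein gene, was at 7.75, 7.15 and 5.88 CPM in HCC38 under EZH2i+AKTi, against 0.319, 0.519 and 0.461 CPM in HCC38 under DMSO, and ESX1, a homeobox gene of the placenta, was at 5.31, 4.93 and 4.54 CPM in HCC38 under EZH2i+AKTi, against 0.261, 0.397 and 0.662 CPM in HCC38 under DMSO. SLC26A4, the anion exchanger pendrin, reached 1.96, 2.12 and 2.91 CPM in HCC38 under EZH2i+AKTi, against 0.05802, 0.397 and 0.201 CPM in HCC38 under DMSO. In HCC1937, DMBT1, a mucosal scavenger receptor gene with no count in any HCC38 library, was at 6.38, 5.87 and 6.36 CPM under EZH2i+AKTi, against 0.171, 0.0671 and 0.106 CPM under DMSO. CLIC5, a chloride intracellular channel protein gene, was at 4.47, 3.58 and 4.02 CPM in HCC1937 under EZH2i+AKTi, against 0.171, 0.0671 and 0.106 CPM in HCC1937 under DMSO, and BCL11A, a zinc finger repressor, was at 2.02, 2.09 and 2.28 CPM in HCC1937 under EZH2i+AKTi, against 0, 0 and 0.0212 CPM in HCC1937 under DMSO. In each of these 6 genes the treated libraries of the named line lay above all other libraries.

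**Figure D5:**
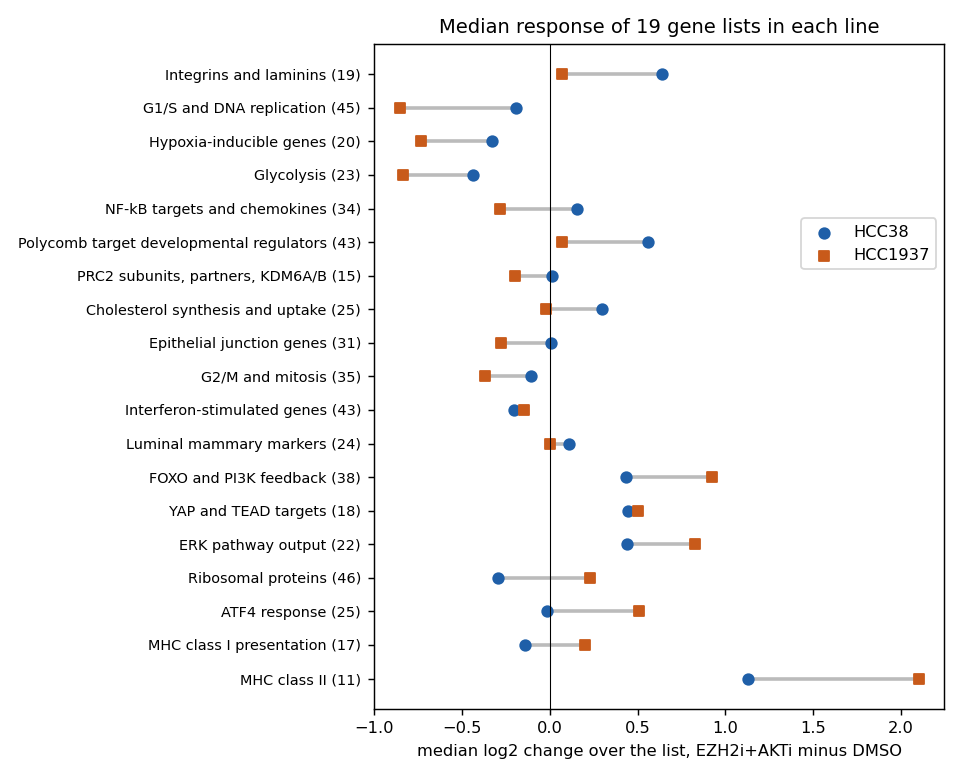
Median log2 change of 19 gene lists in HCC38 (circles) and HCC1937 (squares), with the number of tested genes in brackets, ordered by the median difference. Integrins and laminins are at the top (0.64 in HCC38 and 0.07 in HCC1937) and MHC class II genes at the bottom (1.13 in HCC38 and 2.10 in HCC1937).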

How the data were processed

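Poly-A RNA of HCC38 and HCC1937 under EZH2i+AKTi or DMSO was sequenced in 12 libraries. The authors deposited raw counts per gene symbol. Per the submitters' processing notes, fastp, HISAT2 2.0.5, DESeq2 and hg38 were used. No source used here names the counter, its annotation release or its strand setting. Library totals are in the report, and precision is limited by 3 libraries per group.

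From the counts, genes were kept by edgeR's filterByExpr (minimum count 10), scaled by TMM and fitted with edgeR 4.0.16 (R 4.3.3) in a quasi-likelihood model of 4 group means with 8 residual degrees of freedom. The difference was the contrast of both treatment effects. A gene was called at a Benjamini-Hochberg adjusted p under 0.05 over 19231 genes. SE is the absolute log2 value divided by the square root of F. CPM were computed from TMM-scaled totals, except the summed leukocyte, fibroblast and endothelial markers, which used unscaled library totals. Alternatives were RLE scaling, no filter, a stricter filter, DESeq2 1.42.0, limma 3.58.1 voom, a replicate block, a fit of 24 libraries, mitochondrial genes left out, and each library left out.

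Gene types and overlaps came from GENCODE 29 by symbol (57142 of 57167 symbols matched), and promoters from RefSeq (GRCh38.p14). Of 225 named genes, 41 overlapped a tested protein-coding gene on either strand, and only some of these overlaps are mentioned above. No pair of libraries held identical counts. Named genes were the 10 largest and 10 smallest differences, the 8 largest and 8 smallest opposite ones, up to 5 rises per line in genes silent in the other, a panel, and the 4 list members with the smallest p; some genes that meet these rules are not reported here. The members, lists and rules were chosen with earlier results of these data known.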

Additional observations from a re-analysis of the deposited data

Results flagged for a closer look

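The treatment effects of the lines differed by a test of the difference itself in 3051 genes with a higher and 2483 with a lower value in HCC38 (edgeR's quasi-likelihood test). Effects of opposite sign, with a call in each line and in the difference, were found for 357 genes that rose in HCC38 and fell in HCC1937 and for 211 that fell in HCC38 and rose in HCC1937. These counts were 1043 and 1039 with limma voom, and 596 and 416 without replicate A of EZH2i+AKTi in HCC38. Among gene lists, 35 of 45 replication genes had a higher difference, beside 15.9% of all genes. A lower difference was called for 32 of 46 ribosomal protein genes, beside 12.9% of all genes. With 3 libraries per group, no formal test for outlying libraries was run. Each library was left out in turn instead, with the ranges given below.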

How the results depend on the processing

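The number of genes with a called difference was 5534 and became 5553 with RLE scaling, 5863 with no filter, 5527 with a stricter filter, 5968 with DESeq2, 6628 in the fit of 24 libraries and 5563 without mitochondrial genes. With limma voom and quality weights it was 10596 (5400 higher and 5196 lower), with 6488 rises and 5896 falls in HCC38 and 1043 and 1039 genes of opposite direction (rose in HCC38 first); the cause was not tested. With no filter 327 genes fell in HCC38 and rose in HCC1937. Leaving out single libraries gave 4249 to 7045 differences, 242 to 596 genes that rose in HCC38 and fell in HCC1937, and 136 to 416 of the reverse. The share of higher among called differences was 55.1%, with a low of 50.5% (no filter) and a high of 60.9% (without replicate C of EZH2i+AKTi in HCC1937). With the replicate block 4732 differences were called (2611 higher and 2121 lower). Whether the letters pair libraries is unclear. Deviations of same-letter libraries correlated at -0.126, 0.0946 and 0.205 in HCC38 and at -0.332, -0.106 and -0.213 in HCC1937. For different letters the lowest and highest values were -0.289 and 0.273 (HCC38), and -0.0794 and 0.254 (HCC1937). Deviations within groups of 3 libraries are not independent, so these values cannot exclude shared cultures or batches. Among 225 named genes, no called difference changed sign under an alternative in which its gene was tested. Changes of sign in differences that were not called were not counted. BMF lost its call with RLE scaling (adjusted p = 0.0501), the replicate block (0.0503), voom (0.108) and without mitochondrial genes (0.0508). Counts of 3 or fewer list members often moved by 1 or more when a library was left out.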

Other observations

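Mesenchymal genes gave 13 higher and 3 lower differences among 29 tested (55.2% called, against 28.8% of all genes). There were 18 rises and 3 falls in HCC38 and 14 rises and 8 falls in HCC1937. OXTR, the oxytocin receptor, was at 32.9, 34.6 and 39.7 CPM in HCC38 under EZH2i+AKTi, against 10.3, 9.03 and 8.95 CPM in HCC38 under DMSO and at 63.6, 57.3 and 58.1 CPM in HCC1937 under EZH2i+AKTi, against 83.1, 89.6 and 95.2 CPM in HCC1937 under DMSO, a rise in HCC38 and a fall in HCC1937 (difference 2.50 ± 0.13, adjusted p = 4.54e-09). JAG1, a Notch ligand, was at 84.6, 97.1 and 108 CPM in HCC38 under EZH2i+AKTi, against 111, 91.5 and 106 CPM in HCC38 under DMSO and at 63.7, 61.5 and 61.1 CPM in HCC1937 under EZH2i+AKTi, against 161, 179.6 and 189.9 CPM in HCC1937 under DMSO, with overlapping groups in HCC38 and a fall in HCC1937 (difference 1.42 ± 0.14, adjusted p = 1.97e-06). SQSTM1, the autophagy receptor p62, was at 1336, 1065 and 938 CPM in HCC38 under EZH2i+AKTi, against 991, 984 and 979.9 CPM in HCC38 under DMSO and at 1642, 1816 and 1894 CPM in HCC1937 under EZH2i+AKTi, against 868, 764 and 729.7 CPM in HCC1937 under DMSO, with overlapping groups in HCC38 and a rise in HCC1937 (difference -1.00 ± 0.15, adjusted p = 1.33e-04). STRA6, the receptor that takes up retinol, had the same pattern, with a difference of -1.00 ± 0.10 (adjusted p = 3.21e-06), and WNT5B, a noncanonical WNT ligand, rose in both lines and by more in HCC1937 (difference -1.26 ± 0.15, adjusted p = 1.50e-05).

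Other lists are given by the number of differences called higher and lower, to be read against 15.9% higher and 12.9% lower over all genes, or 28.8% in all. Heat shock genes, mostly of the cytosol but with the mitochondrial HSPD1 and HSPE1, had 7 higher and 1 lower among 13. They had 0 rises and 8 falls in HCC38 and 1 rise and 12 falls in HCC1937. Ribosome biogenesis genes had 26 falls of 32 in each line, with 6 higher and 2 lower differences (25% called, near the share of all genes). Genes of the unfolded protein response had 2 higher and 4 lower among 21. Death receptor and caspase genes had 5 higher and 0 lower among 17, and p53 targets 3 higher and 2 lower among 17. Fatty acid synthesis genes had 6 higher and 1 lower among 18, lysosome and autophagy genes 2 higher and 7 lower among 28 (4 lower without replicate C of DMSO in HCC1937), and retinoic acid genes 1 higher and 8 lower among 16. Basal markers had 8 higher and 7 lower among 28, protease and matrix genes 8 higher and 5 lower among 23, and WNT and BMP genes 9 higher and 8 lower among 34. Immediate early genes had 4 higher and 5 lower among 23, JAK-STAT3 genes 5 higher and 5 lower among 20, Notch genes 3 higher and 2 lower among 19, PRC1 genes 3 higher and 2 lower among 20, CDK inhibitors 1 higher and 1 lower among 7, and other BCL2 family genes 1 higher and 1 lower among 7. For the unfolded protein response (28.6%), death receptors and caspases (29.4%), p53 targets (29.4%), Notch genes (26.3%), PRC1 genes (25%), CDK inhibitors (28.6%) and other BCL2 family genes (28.6%) the share called was near that of all genes.

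Markers of cell types other than cancer cells were summed per library. Leukocyte markers summed to 12.8 to 14.2 CPM in HCC38 under EZH2i+AKTi and 17.3 to 19.9 CPM in HCC38 under DMSO, and to 10.7 to 11.9 CPM in HCC1937 under EZH2i+AKTi and 8.64 to 10.1 CPM in HCC1937 under DMSO. Fibroblast markers summed to 36.9 to 39.6 CPM in HCC38 under EZH2i+AKTi and 25.3 to 26.6 CPM in HCC38 under DMSO, and to 14.5 to 16.1 CPM in HCC1937 under EZH2i+AKTi and 19.7 to 21.1 CPM in HCC1937 under DMSO. The part of these sums in the results was not tested.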
